A study of Homo sapiens with 20 samples.

Results

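The NKG2D ligand genes are the 8 genes of the expression table with the symbols MICA, MICB, ULBP1, ULBP2, ULBP3, RAET1E, RAET1G and RAET1L, taken by symbol from 36076 genes. Each symbol matched 1 row. NKG2D is an activating receptor on natural killer cells, CD8 T cells and many γδ T cells, and its ligands are MHC class I-like proteins that present no peptide and that many healthy tissues carry at low levels. MICA and MICB are encoded within the MHC beside HLA-B. The ULBP proteins, which include ULBP4 (RAET1E), ULBP5 (RAET1G) and ULBP6 (RAET1L), lack the membrane-proximal immunoglobulin-like domain of MICA and MICB, and several of them are held in the membrane by a lipid anchor. DNA damage, infection and transformation are known to raise these ligands, and tumors can shed them from the cell surface.

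The question was how decitabine (DAC), a cytosine analog that traps and depletes DNA methyltransferases, changed the mRNA of these ligands in human lung cancer cell lines. Cells of A549, CL1-0, CL1-5, PC9, H1299 and H1792 were given 100 nM DAC for 72 h and then 3 days without drug, and the Mock cells of each line received PBS. mRNA-seq was available as 1 library per line and treatment (12 libraries), and Omni-ATAC-seq, which maps open chromatin by transposase insertion, as 1 library per line and treatment of A549, CL1-5, PC9 and H1299 (8 libraries). No line was engineered, each library comes from a single culture, and the cultures hold no effector cells. The cell line is therefore the replicate, and p-values measure the spread between lines, which are taken as independent. The study received CL1-0 and CL1-5 from the same provider, and whether they count as independent replicates was not tested. Surface protein was not analysed here.

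The mRNA-seq libraries held 22234485 to 25303899 reads on genes in 5 lines, and 59735913 (Mock) and 52634234 (DAC) in H1299. In the H1299 libraries 81.9% to 85.5% of values between 1 and 20 reads were even numbers, against 39.2% to 41.5% elsewhere, and 70 genes at 5 FPKM or more in every other library were listed at 0 in both H1299 libraries, against at most 2 such genes for any other line. No ligand gene was among them. H1299 stayed in the comparison, and the fit without it is among the alternatives given below. The germline genes DAZL, MAEL and MAGEB2, which are known to be silenced by DNA methylation, were called higher with DAC (3 of 10 germline genes, each higher in 5 of 5 lines). As a check of cell identity, 6 epithelial genes (EPCAM, CDH1, KRT7, KRT8, KRT18 and KRT19) summed to 3589 FPKM in Mock A549 but to 0.986 in Mock CL1-0, with KRT7 and KRT19 at 0 reads, so that CL1-0 nearly lacked them. In all other Mock libraries the sum was at least 112. Of 10 blood cell markers 9 were found, their sum stayed between 0.884 and 8.83 FPKM, and PTPRC, the common leukocyte antigen, did not exceed 0.0759. Of the epithelial genes 0 were called with DAC and 1 of 6 was higher at an unadjusted p under 0.05, and of the blood markers 0 and 2 of 6 tested. FPKM, fragments per kilobase of transcript scaled to library size, is a level per length, and in bulk RNA fewer expressing cells and less RNA per cell cannot be told apart.

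MICA (chr6:31367561-31383092, plus strand, GRCh37) and MICB (chr6:31462658-31478901, plus strand) lie in the MHC on the short arm of chromosome 6. The other 6 genes form a cluster on the long arm, in the order RAET1E, RAET1G, ULBP2, ULBP1, RAET1L and ULBP3, from 150204315 to 150390257. Their identifiers in the table were ENSG00000204520 (MICA), ENSG00000204516 (MICB), ENSG00000111981 (ULBP1), ENSG00000131015 (ULBP2), ENSG00000131019 (ULBP3), ENSG00000164520 (RAET1E), ENSG00000203722 (RAET1G) and ENSG00000155918 (RAET1L). The antisense gene RAET1E-AS1 overlaps RAET1E and RAET1G, but it was at 21 reads or fewer in every library. ULBP2 and RAET1L are close copies. In reference transcripts 29.7% of the 50-base windows of ULBP2 were also found in RAET1L and 29.5% of the windows of RAET1L in ULBP2, whereas RAET1E shared none with another ligand gene or the pseudogene RAET1K. MICA and MICB shared 1.11% and 1.61% of windows, ULBP1 shared 8.13%, ULBP3 5.88%, and RAET1G 178 of its 1483 windows, mostly with ULBP2. Reads in shared stretches can be counted for either gene, so ULBP2 and RAET1L levels are not fully separate measurements.

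The promoters of 4 ligand genes are shown because their mRNA or chromatin differed most: ULBP2 and RAET1L had the highest mean changes, ULBP1 the lowest, and ULBP3 the strongest promoter peak. Each runs 5′ to 3′ over 300 bases that end 50 bases after the RefSeq start (sequence table of GRCh38.p14), was found once in GRCh37 chromosome 6, and has its CG dinucleotides, the sites of DNA methylation, in capitals. They lie at chr6:150262900-150263199 (ULBP2, plus strand), chr6:150346619-150346918 (RAET1L, minus strand), chr6:150284829-150285128 (ULBP1, plus strand) and chr6:150390208-150390507 (ULBP3, minus strand) of GRCh37.
ULBP2: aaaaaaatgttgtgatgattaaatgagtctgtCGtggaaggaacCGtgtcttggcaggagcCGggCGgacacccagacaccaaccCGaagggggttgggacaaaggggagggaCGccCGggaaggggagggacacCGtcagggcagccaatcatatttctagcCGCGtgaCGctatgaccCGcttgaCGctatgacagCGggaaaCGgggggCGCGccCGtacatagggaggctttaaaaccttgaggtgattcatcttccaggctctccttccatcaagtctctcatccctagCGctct
RAET1L: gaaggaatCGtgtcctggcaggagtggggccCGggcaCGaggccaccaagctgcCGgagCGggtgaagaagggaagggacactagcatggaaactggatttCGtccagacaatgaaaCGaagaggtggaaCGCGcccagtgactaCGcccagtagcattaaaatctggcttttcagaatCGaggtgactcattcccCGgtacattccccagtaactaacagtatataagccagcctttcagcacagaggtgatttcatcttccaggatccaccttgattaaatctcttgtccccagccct
ULBP1: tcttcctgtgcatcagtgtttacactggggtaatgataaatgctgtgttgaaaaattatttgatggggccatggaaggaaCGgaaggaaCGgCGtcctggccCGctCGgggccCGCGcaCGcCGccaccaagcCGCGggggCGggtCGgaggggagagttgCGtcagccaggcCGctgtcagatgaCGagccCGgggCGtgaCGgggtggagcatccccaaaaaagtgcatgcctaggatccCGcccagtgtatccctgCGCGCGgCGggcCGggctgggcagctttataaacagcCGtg
ULBP3: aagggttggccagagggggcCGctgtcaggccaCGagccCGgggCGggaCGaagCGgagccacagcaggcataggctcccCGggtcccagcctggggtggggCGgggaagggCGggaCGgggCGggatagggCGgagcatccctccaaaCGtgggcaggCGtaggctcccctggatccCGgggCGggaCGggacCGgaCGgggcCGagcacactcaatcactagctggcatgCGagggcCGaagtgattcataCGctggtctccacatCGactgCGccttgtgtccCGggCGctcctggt

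ULBP3 and ULBP1 had the most CG dinucleotides of the family (27 and 26 in 300 bases), followed by MICA (21), MICB (20), ULBP2 (19), RAET1L (12), RAET1G (10) and the first of 3 listed starts of RAET1E (6). The median over 34796 promoters was 14. Motifs were searched on both strands, and occurrences of different motifs could overlap. GGGCGG, the core of the GC box, occurred 6 times in the ULBP3 promoter, 2 times in ULBP1, 1 time each in MICA, MICB, ULBP2 and RAET1G, and not in RAET1L or at any RAET1E start, against at least 1 occurrence in 44.9% of all promoters. CCAAT, the core of the CCAAT box, was present in MICA, MICB, ULBP2, RAET1G and RAET1E (34.6% of all promoters). GAANNTTC was present in MICA and MICB (6.79%), where it lay at matching places, and TTCNNGAA in RAET1E (7.76%). These letters are pairs of the inverted GAA units of heat shock elements. TGACGTCA, a cyclic AMP response element, was in no ligand promoter (1.84% of all promoters). MICA and MICB promoters had 66.2% identical bases at a shift of 4 bases, while no other pair of ligand promoters passed 39.9% without gaps.

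In Mock-treated cells MICA and MICB had the highest mean ligand mRNA, though MICB was above ULBP2 in only 4 of 6 lines. Over 6 lines MICA averaged 22.4 ± 14.6 FPKM (SD, n = 6) and MICB 19.9 ± 12.7, ahead of ULBP2 at 9.41 ± 8.34, ULBP1 at 5.67 ± 4.74 and ULBP3 at 3.54 ± 1.58. RAET1L was at 1.76 ± 1.11 FPKM, RAET1G at 0.942 ± 0.370 and RAET1E at 0.628 ± 0.935. All 96 ligand values lay above 3 reads, and the lowest rested on 5 reads (RAET1E in CL1-0 with DAC).

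Ordered by their mean log2(FPKM + 0.1) in Mock, the genes ran MICA, MICB, ULBP2, ULBP1, ULBP3, RAET1L, RAET1G and RAET1E. An exact two-sided sign-flip permutation test over the 6 lines, which cannot give a p under 0.0313, was run on 7 neighbour pairs, an order set by the same values. No pair passed after adjustment, but a single pair at the smallest p still has an adjusted p of 0.219, so this says little about which neighbours differ. ULBP3 was above RAET1L in 6 of 6 lines, by 1.06 ± 0.66 (SD) on the log2 scale, with an exact p of 0.0313. The other 6 pairs had adjusted p of 0.365 to 0.688 in the same exact test, and MICA was above MICB in 3 of 6 lines. With DAC the first 2 genes and ULBP1 and ULBP3 changed places, and ULBP2 was above ULBP3 in 6 of 6 lines by 1.71 ± 1.31, with the same exact p of 0.0313.

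The lines differed widely in which ligands they made. The summed FPKM of the 8 genes in Mock was 27.7 in A549, 38.4 in PC9, 53.7 in H1792, 81.2 in CL1-0, 83.3 in H1299 and 101.3 in CL1-5. MICA and MICB together gave 47.8% (H1792) to 80.0% (PC9) of this sum. MICA was the leading ligand in A549, CL1-5 and H1792, and MICB in CL1-0, PC9 and H1299, where in PC9 it made up 65.8% of the sum alone. For each of the 8 genes the range between lines in Mock (1.49 to 4.34 on the log2 scale) was larger than its largest change with DAC in any line. A range joins the 2 extreme lines and is a wide measure. For RAET1G the SD between Mock lines, 0.57, was below its mean size of change, 0.74.

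**Figure D1:**
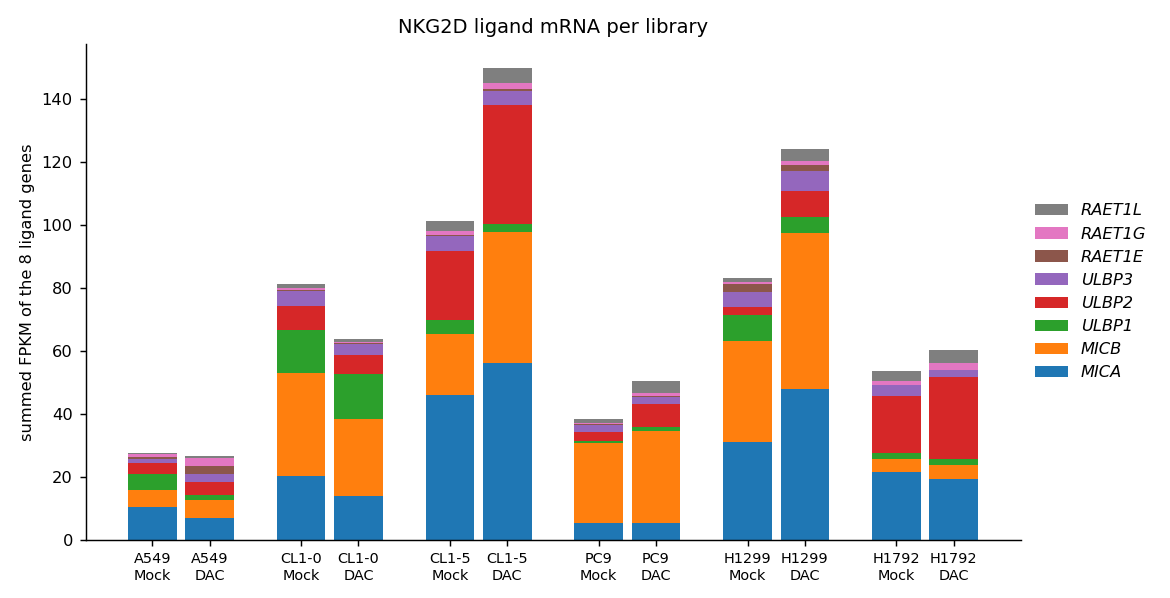
Summed FPKM of the 8 NKG2D ligand genes (y axis) in each of the 12 mRNA-seq libraries (x axis, 1 library per bar), with the share of each gene in colour. The DAC bar is higher than the Mock bar in CL1-5 (150.0 against 101.3) and H1299 (124 against 83.3) and lower in CL1-0 (63.7 against 81.2).

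With DAC the summed ligand level was 150.0 FPKM in CL1-5, 124 in H1299, 50.3 in PC9 and 60.2 in H1792, all above the Mock value of the line. It was 26.7 in A549 and 63.7 in CL1-0, both below it. The ratio of DAC to Mock ran from 0.784 (CL1-0) to 1.49 (H1299). In H1792 the leading ligand passed from MICA to ULBP2, and the share of MICA and MICB was 39.3% of the sum. The FPKM of all genes together also differed, at 416327 in Mock and 326951 in DAC for A549. In H1792 it was 284496 and 319254. The ligand total fell less than this in A549 and rose about as much in H1792. The direction of the total in A549 and H1792 therefore depends on the scaling.

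Across the 5 lines that the study compared (all but H1792), no ligand gene was called. The test was limma on log2(FPKM + 0.1) with the line as block and Benjamini-Hochberg adjustment over 22603 genes at a threshold of 0.05, which called 0.119% of all genes higher and 0% lower. All 8 ligand genes had passed the filter of a mean of at least 0.1 FPKM. At an unadjusted p under 0.05, ULBP2 and RAET1G were higher, 2 of 8 against 8.07% of all genes, and 0 were lower, against 4.4%. This count was 0 without CL1-5, without PC9 or without H1299, 1 without A549 and 3 without CL1-0, and without PC9 1 was lower (ULBP1). limma voom on the recovered reads also called 0 ligand genes, and 2 passed that unadjusted threshold. Fold changes were above 0 for 6 of the 8, and their median was 0.45 on the log2 scale beside 0.068 over all genes tested. For each gene the ranges of Mock and DAC levels overlapped. These ranges ignore the pairing by line, and lines differed widely, so nothing is read from the overlap.

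**Figure D2:**
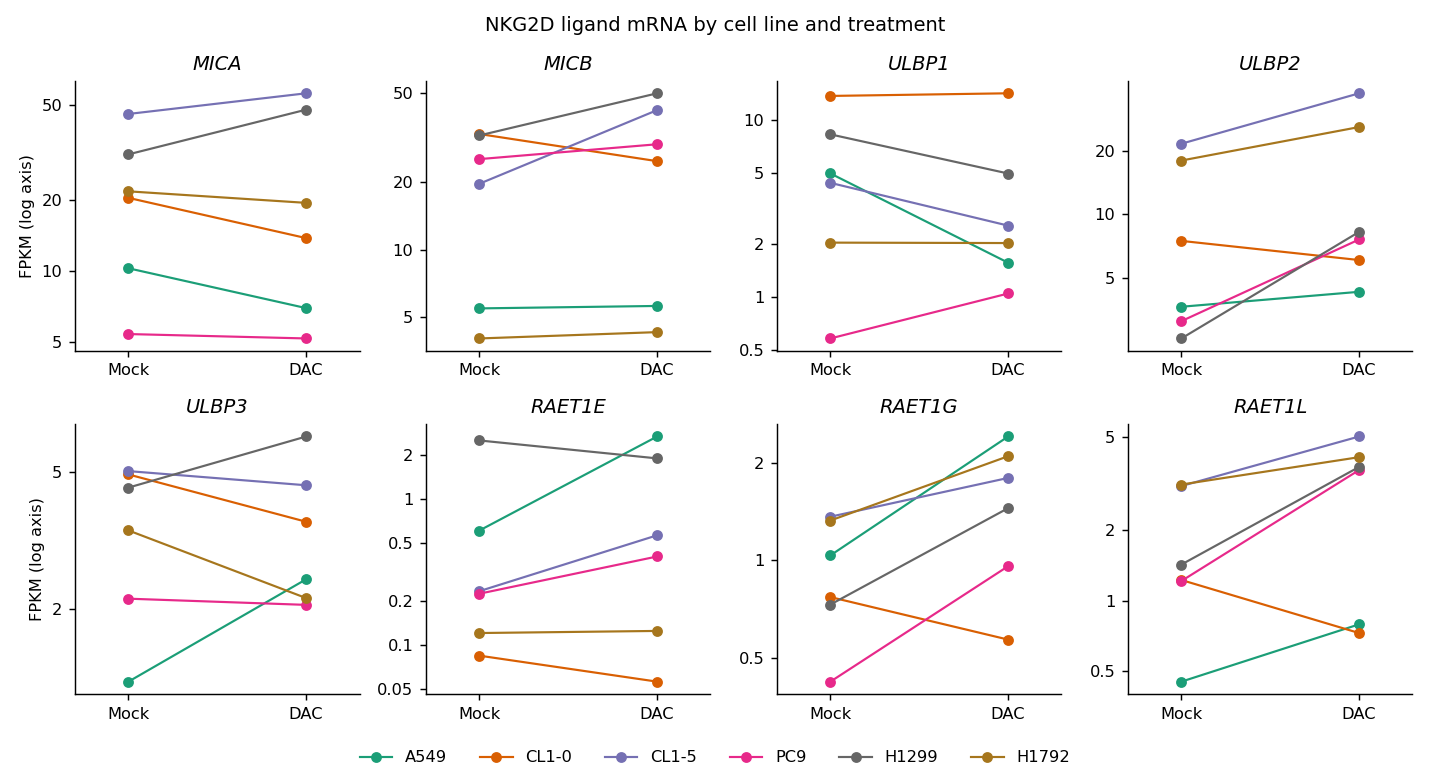
FPKM (y axis, log scale, own range per panel) of each ligand gene in Mock and DAC (x axis), with 1 line per cell line joining its 2 libraries. CL1-0 is the only line in which ULBP2, RAET1G, RAET1L and MICB are all lower with DAC.

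ULBP2, the ligand with the highest mean change, codes for a lipid-anchored protein of the cluster on the long arm. Its Mock levels were 3.63 FPKM in A549, 7.47 and 21.7 in CL1-0 and CL1-5, 3.10 in PC9, 2.57 in H1299 and 18.0 in H1792. With DAC they were 4.28, 6.06, 37.6, 7.59, 8.25 and 26.0, in the same order of lines. It was thus higher in 5 of 6 lines and lower in CL1-0, and CL1-5 and H1792 stood above the other 4 lines under both treatments, with CL1-5 the highest. The fold of the FPKM was 3.21 in H1299 and 2.45 in PC9. In H1299 the log2 ratio of reads was 1.68 with an exact 95% interval of 1.35 to 2.03, in PC9 it was 1.29 (0.93 to 1.66), and these intervals cover counting error only and compare 2 libraries. Across the 5 lines the log2 fold change was 0.73 ± 0.28 (SE, limma, 95% interval 0.082 to 1.37, adjusted p = 0.364), and it was 0.50 without H1299.

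RAET1L, which codes for ULBP6 and shares sequence with ULBP2 as given above, was higher in the same 5 lines. In Mock it was at 0.451 FPKM in A549, 1.23 and 3.10 in CL1-0 and CL1-5, 1.22 in PC9, 1.43 in H1299 and 3.14 in H1792. In DAC it was at 0.793, 0.728, 5.05, 3.63, 3.74 and 4.12. CL1-5 and H1792 were again the highest in Mock, and the change passed 2-fold in PC9 (34 to 113 reads) and H1299 (110 to 266 reads). Its log2 fold change across the 5 lines was 0.71 ± 0.31 (SE, limma adjusted p = 0.409), and it was 0.55 without H1299. Over the 12 libraries the levels of ULBP2 and RAET1L correlated with an r of 0.775, which describes libraries that share lines and, in part, reads.

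RAET1G, which codes for ULBP5, was low in every library and differed in the same direction. Its Mock levels were 1.04 FPKM in A549, 0.770 and 1.37 in CL1-0 and CL1-5, 0.421 in PC9, 0.730 in H1299 and 1.33 in H1792, and its DAC levels 2.42, 0.568, 1.80, 0.959, 1.45 and 2.103. It was higher in 5 of 6 lines, with 2.34-fold in A549 and 2.28-fold in PC9, and lower in CL1-0, where 27 and 25 reads could not separate the libraries (log2 ratio of reads −0.44, interval −1.28 to 0.40). The log2 fold change was 0.61 ± 0.25 (SE, limma, 95% interval 0.019 to 1.21, adjusted p = 0.389).

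MICB followed these 3 genes in direction. It went from 5.47 to 5.61 FPKM in A549, from 32.7 to 24.7 in CL1-0, from 19.6 to 41.8 in CL1-5, from 25.3 to 29.4 in PC9, from 32.2 to 49.6 in H1299 and from 4.02 to 4.29 in H1792. A549 and H1792 stood well below the other 4 lines under both treatments, and only CL1-5 passed 2-fold. The counting intervals of A549 and H1792 included 0, so no difference was detectable there at this depth. The log2 fold change was 0.31 ± 0.21 (SE, limma adjusted p = 0.548), and it was 0.12 without CL1-5, 0.23 without H1299 and 0.49 without CL1-0.

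MICA, its neighbour with a similar protein, showed no common direction. It went from 10.3 to 6.98 FPKM in A549, from 20.3 to 13.8 in CL1-0, from 21.7 to 19.4 in H1792 and from 5.42 to 5.20 in PC9. The counting interval lay below 0 in the first 3 of these and included 0 in PC9. It went from 45.9 to 56.1 FPKM in CL1-5 and from 31.0 to 47.8 in H1299, the lines with the highest Mock levels. No line passed 2-fold. The log2 fold change was −0.052 ± 0.20 (SE, limma 95% interval −0.51 to 0.41, adjusted p = 0.926). Its sign turned when FPKM was rescaled to a common sum per library (0.070), by voom (0.024), without A549 (0.073) and without CL1-0 (0.075).

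ULBP1 had the lowest mean change of the 8. It was at 4.99 FPKM in Mock and 1.56 in DAC in A549, the only pair of ligand and line at least 2-fold lower (336 and 124 reads, log2 ratio −1.68, interval −1.99 to −1.38). It was also lower in CL1-5 (4.42 and 2.53 FPKM) and H1299 (8.30 and 4.99). In CL1-0, where it was highest, it was at 13.7 and 14.2, in H1792 at 2.03 and 2.02, and in PC9, where it was lowest, at 0.582 and 1.05. The log2 fold change was −0.46 ± 0.32 (SE, limma adjusted p = 0.552), at the 4.88 percentile of the genes tested, and it was −0.18 without A549 and −0.77 without PC9.

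In Mock, ULBP3 varied least between lines after RAET1G. It was at 1.23 FPKM in A549, 4.93 and 5.04 in CL1-0 and CL1-5, 2.14 in PC9, 4.51 in H1299 and 3.39 in H1792 in Mock, and at 2.44, 3.59, 4.58, 2.06, 6.36 and 2.15 in DAC. It was higher in A549 and H1299 and lower in the other 4, with counting intervals that included 0 in CL1-5 and PC9. The log2 fold change was 0.16 ± 0.21 (SE, limma adjusted p = 0.763), and it was −0.038 without A549, 0.074 without H1299 and 0.31 without CL1-0.

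RAET1E, which codes for ULBP4, was the lowest ligand in 4 of 6 Mock lines and gave the single largest change. It went from 0.606 to 2.66 FPKM in A549 (39 to 202 reads, 4.39-fold, log2 ratio of reads 2.13, interval 1.63 to 2.67). In CL1-5 it was at 0.233 and 0.562, in PC9 at 0.224 and 0.403, and in H1792 at 0.121 and 0.1248. In H1299, the highest Mock line, it was at 2.50 and 1.88, and in CL1-0 at 0.0846 and 0.0562, on 6 and 5 reads. The log2 fold change was 0.59 ± 0.36 (SE, limma adjusted p = 0.514), and it was 0.25 without A549 and 0.84 without H1299.

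**Figure D3:**
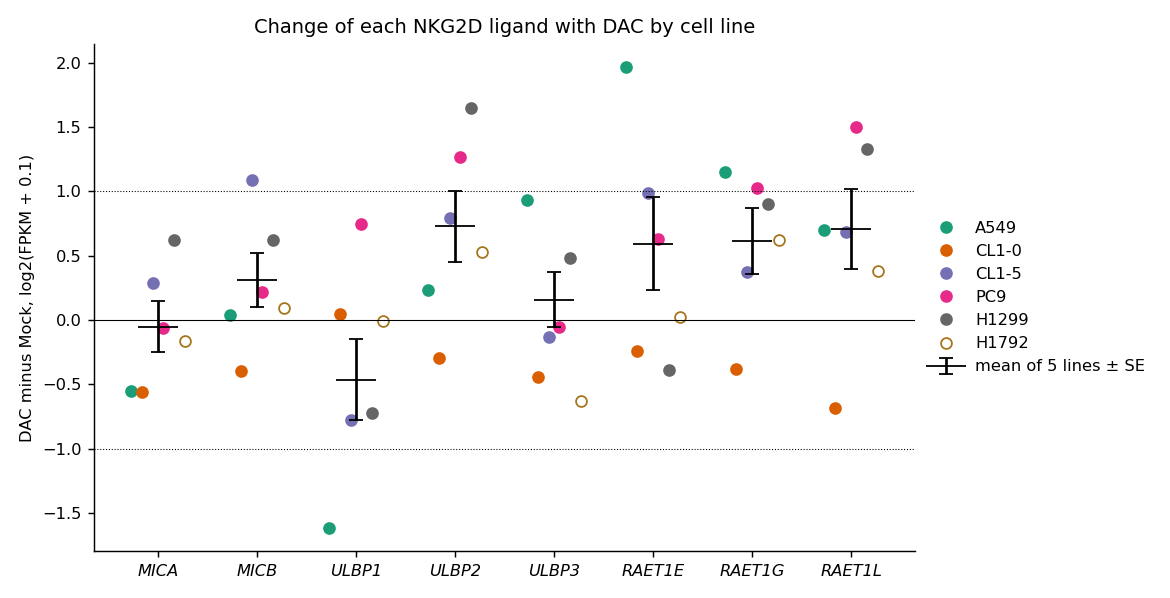
DAC minus Mock difference of log2(FPKM + 0.1) (y axis) for each ligand gene (x axis), with 1 point per cell line, H1792 as an open point, and black bars for the limma mean of 5 lines with its SE. Dotted lines mark 2-fold, and 8 points lie above the upper and 1 below the lower one.

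Taken by line, 8 of 48 pairs of ligand and line were at least 2-fold higher with DAC on the log2(FPKM + 0.1) scale (9.85% of all pairs of gene and line) and 1 was at least 2-fold lower (4.32%). PC9 had 3 of the 8 (ULBP2, RAET1G and RAET1L), against 10.2% of all genes in that line. H1299 had 2 (ULBP2 and RAET1L, against 8.18%), A549 had 2 (RAET1E and RAET1G, against 15.5%) and CL1-5 had 1 (MICB, against 7.25%). CL1-0 and H1792 had 0, against 7.6% and 10.3% of all genes. The 1 lower pair, ULBP1 in A549, stands beside 6.69% of all genes in that line. At 1.5-fold, 19 pairs were higher (18.5% of all pairs) and 5 were lower (11.2%). With 1 library per line and treatment these differences have no replicate check.

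Counted by direction alone, 30 of 48 pairs were higher with DAC, against 49.9% of all pairs of gene and line. Of the 8 ligands 6 were higher in A549 (53.5% of all genes), 6 in CL1-5 (49.2%), 6 in PC9 (51%), 6 in H1299 (43.4%) and 5 in H1792 (51.6%). In CL1-0 only ULBP1 was higher, 1 of 8 against 50.5% of all genes. Genes with the same value in both libraries of a line counted as not higher, which lowers the shares over all genes. The median change over all genes was 0 in CL1-5 and H1299. The median ligand change was −0.39 in CL1-0, 0.46 in A549, 0.53 in CL1-5, 0.69 in PC9, 0.62 in H1299 and 0.059 in H1792. CL1-0 was thus the line in which most ligands were lower, while its median over all genes was 0.0069. MICB, ULBP2, RAET1G and RAET1L were higher in the 5 lines other than CL1-0 and lower in CL1-0, a pattern picked after its values were seen that 2.07% of all genes had. Without CL1-0, a line singled out here by these same values, 3 of 8 ligand genes passed an unadjusted p of 0.05. The lowest adjusted p was 0.266 (limma, RAET1L, log2 fold change 1.05). Leaving out the line in which most ligands were lower raises their mean change by construction, so this fit is a description only. The epithelial gene sum of CL1-0 was the lowest of the 6 lines under both treatments, and its part in the lower ligand levels of CL1-0 with DAC was not tested.

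Genes whose levels ran most like those of a ligand over the 12 libraries were taken from 13363 genes with a mean of at least 1 FPKM. For MICB these were ZNF440 (r = 0.971), ZNF486 (0.971) and ZNF829 (0.963), all genes of zinc finger proteins. For MICA they were POMT1 (0.959), AP1M1 (0.928) and HECTD3 (0.925), and for ULBP1 KRBOX4 (0.952), C1QL4 (0.945) and KIF17 (0.933). ULBP2 ran with FOXF1 (0.940), PMAIP1 (0.935) and DNAJC25 (0.911), and ULBP3 with ZNF280B (0.949), XPO5 (0.930) and NDOR1 (0.926). RAET1E ran with FAM168B (0.940), WWP2 (0.929) and SIPA1L3 (0.924). The values were lower for RAET1L (SLC25A25, 0.906, SH3GLB1, 0.887, and BIRC2, 0.878) and RAET1G (FAM219A, 0.882, DEGS1, 0.882, and LBX2-AS1, 0.868). Among the ligands themselves the highest r was 0.783, between MICA and ULBP3, and the lowest −0.435, between MICB and RAET1G. The 12 points come from 6 lines and were picked as the highest of many, so they are a description only.

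Other genes of the pathway were taken as lists. Of 12 genes with known roles in inducing NKG2D ligands 0 were called, 2 had an unadjusted p under 0.05, and the median was −0.078. STAT3, a transcription factor, had a log2 fold change of 0.51 ± 0.13 (SE, limma adjusted p = 0.266) and was higher in 5 of 5 lines. ATF4, a stress-response transcription factor known to act on ULBP1, went from 262 ± 114 to 192 ± 103 FPKM (SD, n = 5 lines) with a log2 fold change of −0.52 ± 0.24 (limma adjusted p = 0.421). MYC was at −0.25 ± 0.19. Of 6 genes of ligand shedding and folding, which include the proteases ADAM10, ADAM17, ADAM9 and MMP14, 0 were called and 0 had an unadjusted p under 0.05. MMP14 had the highest value there, 0.79 ± 0.39 (limma adjusted p = 0.443), ADAM10 was at 0.23 ± 0.14, TIMP3 at 0.28 ± 0.27 and ADAM17 at 0.098 ± 0.12.

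Of 12 ligands of other activating receptors of natural killer or γδ T cells, 11 passed the filter, 0 were called and 0 had an unadjusted p under 0.05. The 4 with the smallest p were BTN2A1 (log2 fold change 0.27), BAG6 (−0.23), NCR3LG1 (0.61) and NECTIN2 (0.30), with limma adjusted p of 0.406 to 0.479. The median of this list was 0.11, beside 0.45 for the NKG2D ligands and 0.068 for all genes. On the receptor side KLRK1, which codes for NKG2D itself, did not exceed 0.0143 FPKM in any library. TYROBP, an adaptor of activating receptors, went from 0.264 ± 0.564 to 1.47 ± 0.928 FPKM (SD, n = 5 lines, limma log2 fold change 2.90 ± 0.45, adjusted p = 0.0937), higher in 6 of 6 lines. HCST, the adaptor that pairs with NKG2D, was at 0.40 ± 0.31 and KLRD1 at 0.21 ± 0.21.

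Of 10 genes near MICA and MICB, 9 passed the filter, 0 were called, and 4 had an unadjusted p under 0.05, all with higher levels in DAC (8.07% of all genes were higher at that p). These were HCP5, which lies between MICA and MICB (1.79 ± 0.41, limma adjusted p = 0.204), LTA (0.97 ± 0.23, 0.223), TNF (1.94 ± 0.55, 0.282) and HLA-B (0.86 ± 0.31, 0.340). Only HLA-B was well expressed in Mock, at 8.50 to 95.6 FPKM. In Mock, LTA did not exceed 0.101 FPKM, TNF 0.167 and HCP5 1.29, levels at which the added 0.1 weighs on the fold change. HCP5 was higher in 6 of 6 lines and MICA in 2 of 6. Of 10 genes near the ULBP and RAET1 cluster 9 passed, 0 were called and 0 had an unadjusted p under 0.05, with a median of 0.0056. The lowest p there belonged to PLEKHG1 (0.41 ± 0.23), LRP11 (0.32 ± 0.19), KATNA1 (−0.10 ± 0.11) and PPP1R14C (−0.22 ± 0.27). Of the 6 ligand genes of the cluster, RAET1L, ULBP2, RAET1G and RAET1E, at 0.59 to 0.73, lay above each of these 9 neighbours. ULBP3, at 0.16, lay below PLEKHG1 and LRP11, and ULBP1, at −0.46, lay below all 9. These differences were not tested.

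In the Omni-ATAC-seq data, peaks had been called separately in each library, and a promoter peak is here a listed peak within 3000 bp of a gene start. The lists held 45354 to 97584 peaks, and the DAC list was longer than the Mock list in 4 of 4 lines. The libraries labelled CL1-5 and PC9 went against their labels. A set of 80 genes was at 5 FPKM or more in the mRNA of Mock CL1-5 and under 0.1 in that of Mock PC9. Promoter peaks were listed for 62.5% of them under the CL1-5 label and for 87.5% under the PC9 label (Mock). For 143 genes with the opposite mRNA pattern the shares were 92.3% and 51.7%. Each of these 4 libraries is therefore called by its label alone, and none is set beside the mRNA of a line.

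Most ligand promoters already had a listed peak in the Mock libraries. Of 64 pairs of ligand gene and library, 58 had a promoter peak, against 80.8% of 123400 pairs over all genes tested. ULBP1, ULBP2, ULBP3, RAET1E, RAET1G and MICA had one in 8 of 8 libraries and MICB in 7. RAET1L had one in 3, which were both libraries labelled CL1-5 and the DAC library labelled PC9. One pair of ligand and line was gained with DAC (RAET1L in the library labelled PC9, fold enrichment 2.76), against 5.29% of all pairs, and 1 was lost (MICB in A549), against 3% of all pairs. At a q-value under 0.01, 0 were gained and 2 lost. These counts follow the gene listed for each peak. The only MICB peak of Mock A549 lay on an alternate MHC contig, inside a stretch listed for MICA in Mock H1299. Whether the MICB promoter itself had a peak in A549, and lost it, is therefore not shown.

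ULBP3, with 6 GGGCGG motifs, had the strongest promoter peak of the cluster. Its fold enrichment was 10.4 in Mock and 8.05 in DAC for A549, 8.10 and 6.42 under the label CL1-5, 9.01 and 8.41 under PC9, and 9.39 and 7.60 in H1299. These values lay at the 93.1 to 98.0 percentile of all peaks of their lists, although ULBP3 mRNA was below that of ULBP2 in 5 of 6 Mock lines. A further peak listed for ULBP3, at chr6:150401864-150402204, about 11.6 kb before its start, reached the 83.8 to 95.4 percentile in both treatments of A549 and H1299 and under the PC9 label. No peak was listed there under the CL1-5 label in Mock or DAC.

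ULBP2 promoter peaks had fold enrichments of 6.70 in Mock and 6.59 in DAC in A549 and of 4.90 and 4.28 in H1299, at the 70.0 to 85.5 percentile over all 8 libraries. A fold enrichment depends on the background of its own library, and its median over all peaks was lower in DAC for 4 of 4 lines. The percentile depends on the length of the list, and a longer list with more weak peaks raises the percentile of the same peak. No change between Mock and DAC is therefore read from either value. ULBP1 peaks lay lower, at the 49.9 to 76.5 percentile. In A549 their fold enrichment was 5.07 in Mock and 4.84 in DAC.

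RAET1E peaks were among the weakest, at the 14.6 to 67.3 percentile. In A549 the RAET1E peak had a fold enrichment of 3.73 in Mock and 3.57 in DAC. RAET1G had a peak across its start in 8 of 8 libraries, with fold enrichments of 4.20 in Mock and 3.94 in DAC in A549 and of 3.32 and 3.04 in H1299. RAET1L, without a promoter peak in either library of A549 and H1299, was transcribed at 0.451 and 1.43 FPKM in these lines in Mock and at 0.793 and 3.74 in DAC, and there its shared reads with ULBP2 apply. In the cluster from RAET1E to ULBP3 there were 13 peaks in Mock and 13 in DAC for A549, 13 and 20 under the label CL1-5, 20 and 28 under PC9, and 13 and 21 for H1299. As a share of all peaks in its list this ran from 0.0152% to 0.033%.

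**Figure D4:**
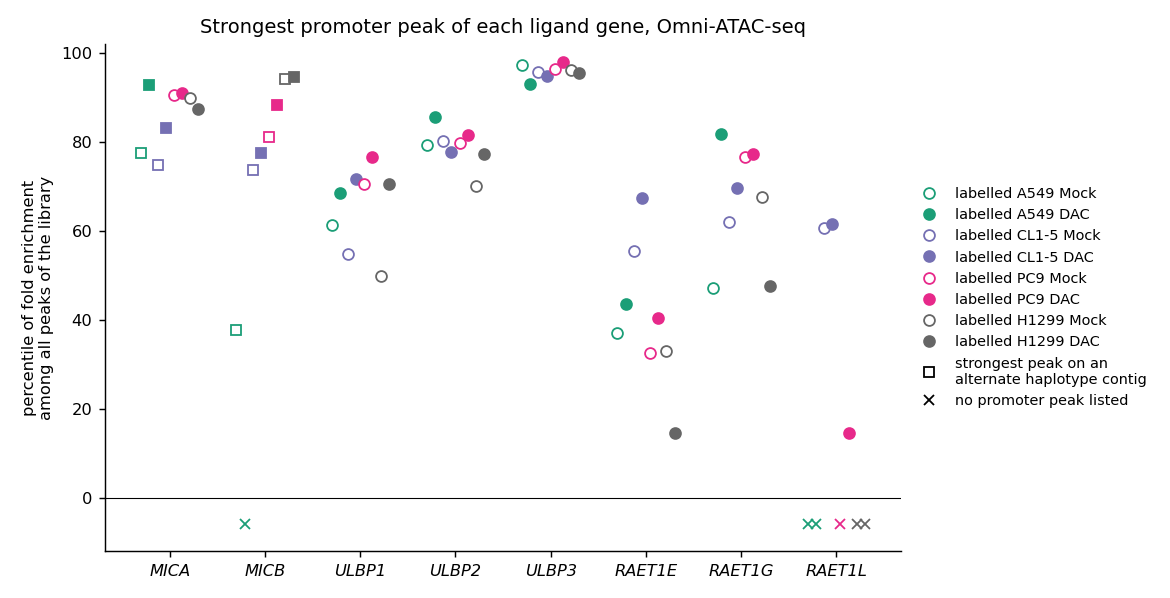
Percentile of the fold enrichment of the strongest promoter peak among all peaks of the same library (y axis) for each ligand gene (x axis), with 1 point per Omni-ATAC-seq library, open for Mock and filled for DAC, squares for peaks on alternate MHC contigs and crosses for no listed peak. ULBP3 stays at the 93.1 percentile or above in all 8 libraries, and RAET1L has a peak in 3. For RAET1G the plotted peak is not the same in all libraries, because a peak before its start lies close to the promoter limit. In A549 that peak was at −3009 bp in Mock (left out) and −2984 in DAC (counted), with points at 47.1 and 81.9. In H1299 it was at −2984 in Mock and −3009 in DAC, with points at 67.7 and 47.6. No change with DAC is read from these RAET1G points. The MICB points of Mock A549 and of DAC labelled PC9 are peaks in a stretch that was listed for MICA in Mock H1299.

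The peaks of MICA and MICB were spread over several copies of the MHC. Reads had been mapped to a genome with alternate MHC haplotype contigs, and MICA had a promoter peak on chromosome 6 itself in 4 of 8 libraries (H1299 and those labelled PC9), while MICB had none there. All other MICA and MICB promoter peaks, 2 to 4 per library, lay on the alternate contigs, where one stretch was listed for MICA in the H1299 Mock library and for MICB in others. The A549 MICB peak, the one lost with DAC, was such a case, with a fold enrichment of 3.76. MICA peaks lay at the 74.8 to 92.7 percentile and MICB peaks at the 37.7 to 94.6 percentile, where the lowest MICB value is this A549 peak. The strongest MICB peak of the DAC library labelled PC9, at the 88.2 percentile, lay in that same stretch. Its other MICB promoter peaks were at the 82.3 and 59.5 percentile. Whether mRNA reads of MICA and MICB were also placed on alternate contigs is not given in the sources used here, and the part of this in the levels of the lines was not tested.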

How the data were processed

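mRNA-seq libraries (12, from 6 lines) and Omni-ATAC-seq libraries (8, from 4 lines) were assigned to line and treatment by label. The authors trimmed the mRNA-seq reads, used RSEM with bowtie2 on hg19 (the submitters' processing notes name TopHat2 2.1.1), counted reads per GENCODE gene and deposited FPKM values computed with DESeq2 1.24.0. The deposited table also holds a mean normalized signal per gene, used here to recover reads, and the authors' own fold changes, errors and p-values, not used. The kit keeps strand, and the strand setting of the counting is not given in the sources used here. For Omni-ATAC-seq the authors aligned with BWA 0.7.17-r1188, called broad peaks in each library with MACS2 2.2.5 and annotated them with ChIPseeker 1.20.0. The deposited lists give each peak's fold enrichment (a ratio) and −log10 q-value. The peak lists do not give the read depth of each library, and 0 columns lacked a sample.

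Dividing FPKM by the worth of a single read gave whole reads for 100% of values, within 0.01, and 3 reads or fewer counted as undetected. limma 3.58.1 (R 4.3.3) was fitted to log2(FPKM + 0.1), with line as block and an intensity trend, over genes with a mean of at least 0.1 FPKM in 5 lines, and had been tested on simulated data. Its fold changes understate those of low genes. The pairing comes from the shared line: in each line, Mock and DAC deviated together from their group means (r of 0.700 to 0.902, against at most 0.161 between different lines). That highest r between different lines was the one of Mock CL1-5 and DAC CL1-0. Within a line, exact conditional binomial 95% intervals of the read ratio (scipy 1.17.1) cover counting error only, and H1299 reads were halved for them because most were even.

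Positions are from GENCODE on GRCh37, and all 8 members had a RefSeq promoter. Named were all 8 members, up to 4 genes of lowest p and those called from each list, and the 3 genes of highest Pearson r. One gene of the lists is not reported here. Members and lists were chosen with earlier results of these data known. Alternatives changed the lines (H1792 added, each line left out), the block, the pseudocount (1, 0.01), the filter (none, or at least 1 FPKM), the scaling (TPM, quantile), the trend, the tool (voom), the fold (1.5), and, for peaks, the q-value, number, window (1000 bp), gene starts and the labels CL1-5 and PC9.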

Additional observations from a re-analysis of the deposited data

Results flagged for a closer look

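Of 37 groups of 4 to 6 libraries checked for a value far from the others, 1 stood out by Dixon's test, which flags about 1 in 20 groups by chance. The ULBP2 promoter peak of Mock H1299 lay at the 70.0 percentile of its list, below the other 3 Mock libraries, whose median was 79.7. That list was the shortest, with 45354 peaks, and a percentile depends on the length of its list.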

How the results depend on the processing

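No ligand gene was called under any of the 15 alternatives of the fit across lines, with a lowest adjusted p of 0.266 (limma, without CL1-0). The number of all genes called higher was 27, and it was 53 with H1792 added, 10 with no replicate block, 0 at a pseudocount of 1, 2 with no filter, 17 after quantile normalization, 6 with no trend, 178 by limma voom and 0 to 22 when each line was left out. It was 0 without A549 and without CL1-5, 5 without CL1-0 and 12 without PC9. At an unadjusted p under 0.05 the higher ligand genes numbered 0 to 4 over these alternatives, with 4 for a common sum. The fit without the block, which ignores the pairing of Mock and DAC within a line, changed no ligand call. MICA turned to 0.070 with a common sum and 0.024 by voom. With each line left out it ran from −0.22 (without H1299) to 0.075 (0.073 without A549), while ULBP3 ran from −0.038 to 0.31. The median of all genes was 0.068 in log2, 0.17 with a common sum and −0.039 after quantile normalization. Of the pairs of ligand and line, 5 were at least 2-fold higher and 1 lower at a pseudocount of 1, and 19 were at least 1.5-fold higher and 5 lower, and no called pair changed sign under any scaling or pseudocount tried. Among all 48 pairs, 4 changed sign with a common sum and 1 after quantile normalization. With annotated gene starts on chromosome 6, which leaves out the alternate contigs, 47 of 64 pairs had a promoter peak. RAET1E in CL1-0, at 5 and 6 reads, is limited by depth. The order of levels without H1792 began with MICB before MICA. The cause of the other shifts was not tested.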
